A study of Homo sapiens with 6 samples.

Results

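Integrins and laminins carry the contact between a cell and the matrix around it, and their genes were followed here in U-2 OS, a cell line from a human osteosarcoma. The genes were chosen by name. They are the protein-coding genes called ITGA or ITGB with a number or 1 of the letters D, E, L, M, V and X, and those called LAMA, LAMB or LAMC with a number. This gave 37 genes, 25 for integrins and 12 for laminins, of 19921 protein-coding genes and 21447 genes in all. ITGA2B, ITGB1BP1, ITGB1BP2, ITGB3BP and ITGBL1 have related names and were not included. Unsynchronized cells received 4 Gy of ionizing radiation (IR) and were lysed 24 h later, or received none, and each group has 3 bulk RNA-seq libraries. Both groups carry the alleles of the cell line, without any engineered change or other agent named in the labels. The study describes the libraries of each group as independent samples, but neither it nor the labels say that they came from separate cultures, so that P values measure only the spread between these libraries. The comparison bears on 1 cell line, 1 dose and 1 time.

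An integrin is a receptor made of an alpha and a beta subunit that spans the plasma membrane, binds matrix proteins or other cells outside, and holds the actin or keratin cytoskeleton through adaptor proteins inside. The pair decides the ligand. Some alpha subunits favour collagens, some laminins, some proteins with an RGD motif such as fibronectin and vitronectin, and a further group is typical of leukocytes. Most alpha subunits of matrix receptors pair with ITGB1, while ITGAV can also pair with ITGB3, ITGB5, ITGB6 or ITGB8. A laminin is a secreted trimer of an alpha, a beta and a gamma chain and is a main protein of basement membranes, where LAMA1 and LAMA5 commonly join LAMB1 or LAMB2 and LAMC1, and LAMA3 joins LAMB3.

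Total estimated counts were between 18573309 and 22953834 in 5 libraries and 45308792 in IR replicate 3, whose values therefore have the smallest counting error. IR replicate 3 was also the library least like its group. Its chi-square per gene, a measure of how far counts differ, was 28 against IR replicate 1 and 31.1 against IR replicate 2. Between IR replicates 1 and 2 it was 5.95. The share of depth in this was not tested. The 37 genes held between 0.525% and 0.568% of the counts on genes in each library. Of the markers of the mesenchymal and osteoblast lineage, VIM, COL1A1 and SPARC were high, from 443 to 2022 TPM in the 6 libraries, whereas RUNX2, ALPL and COL1A2 reached at most 4.87, 2.14 and 0.90 TPM. The 4 leukocyte markers summed to between 1.83 and 3.50 TPM in untreated libraries and between 0.93 and 1.48 TPM after IR, and CD3E was at 0 in all. The 4 epithelial markers summed to between 17.1 and 21.1 TPM untreated and between 17.7 and 20.9 TPM after IR, mostly from EPCAM, and the 3 endothelial markers to at most 2.57 TPM. CPM values below are estimated counts divided by library sizes scaled by TMM, a correction for library composition. The groups were compared with the quasi-likelihood test of edgeR, a count model, over 14323 genes that passed a filter on low counts, with Benjamini–Hochberg adjustment over all of them. A gene is said to have been called, or to have risen or fallen, where its adjusted P was under 0.05.

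Of the 37 genes, 31 were tested, and 13 rose and 4 fell after IR. The rises spanned both families, with 7 integrin and 6 laminin genes, and the falls were ITGAV, ITGB8, ITGA1 and LAMA4. Over all tested genes, 15.5% rose, 14.5% fell and 30.1% were called in either direction. The median log2 fold change was 0.21 for the 31 genes and 0.01 for all tested genes. In 22 of the 31 genes (71.0%) values after IR and untreated values did not overlap, compared with 47.1% of all tested genes. In bulk RNA, a change in the share of cells that express a gene and a change in the RNA per cell cannot be told apart. Across all genes fold changes rose with GC content. The calls, and the fold changes of some genes, are therefore also given with that trend removed. Levels, sums and ratios below carry no such correction.

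**Figure D1:**
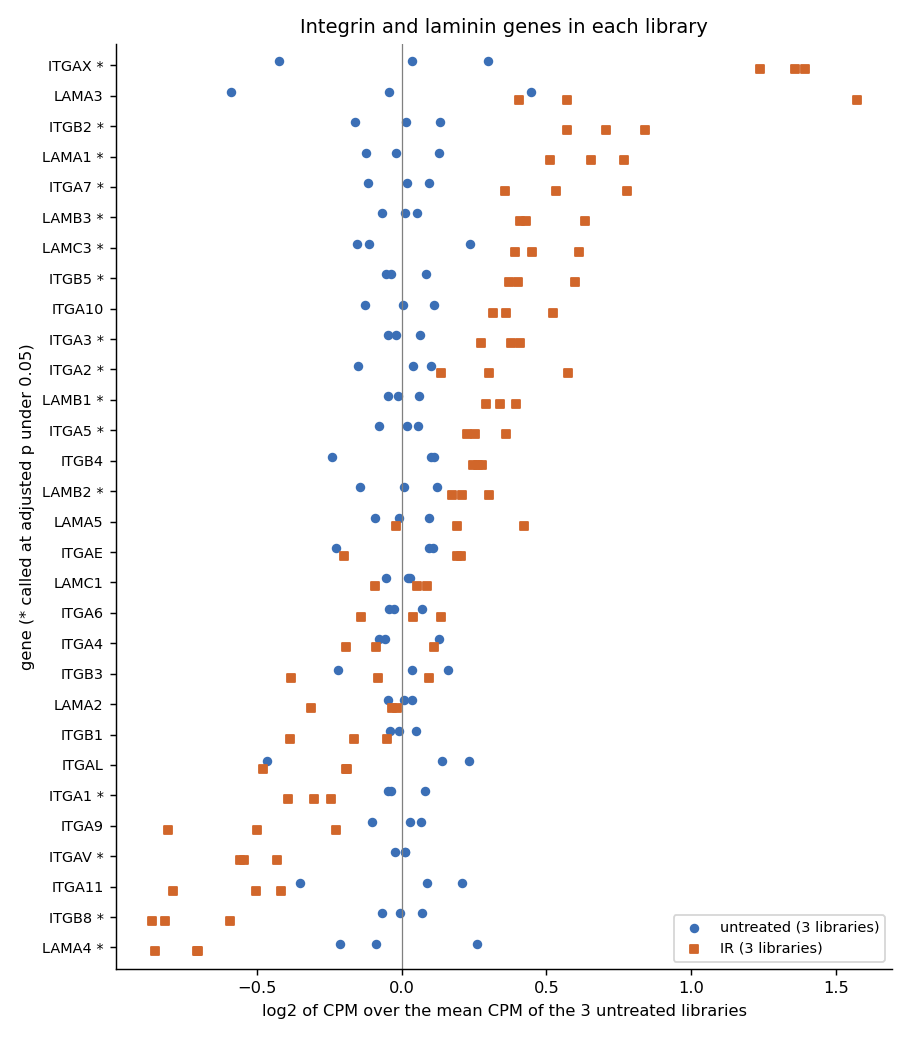
Each row is 1 of 30 tested genes, ordered by log2 fold change, and each point is 1 library, drawn as the log2 of its CPM over the mean of the 3 untreated libraries. Circles are untreated and squares are IR. Stars mark 16 called genes, from ITGAX at the top to LAMA4 at the bottom, and in each of them the groups are apart.

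Levels of different genes can be compared only per length, for which the deposited TPM values were used. Summed over all transcripts of a gene, the highest mean levels were 1116 TPM for ITGB1, 378 TPM for LAMC1, 351 TPM for ITGB5, 159 TPM for ITGA3 and 94.7 TPM for LAMB3. Much of this came from short annotated transcripts, which receive a high TPM from few counts. Levels were therefore also summed over full-length transcripts alone, defined as protein-coding transcripts with at least 80% of the highest exon number of the gene, a choice made after seeing the data. On that scale ITGB1, the common partner of matrix-binding alpha subunits, remained first at 1034 TPM, followed by ITGA3 at 113, ITGAV at 71.3, LAMC1 at 63.8, LAMB3 at 54.4 and ITGA5 at 53.6 TPM. ITGB5 dropped to 38.05 TPM, since only 48.9% of its counts lay on full-length transcripts. In untreated libraries LAMC1, at 59.9 to 65.1 TPM, lay above ITGA5, at 44.8 to 49.8 TPM, and LAMB3, at 42.8 to 44.96 TPM, and the last pair of ranges overlapped. After IR the ranges of LAMC1, LAMB3 and ITGA5 all overlapped, at 59.2 to 70.0, 54.5 to 81.2 and 52.0 to 70.6 TPM. The place of ITGAV changed between groups. In untreated libraries its full-length level, from 86.4 to 93.6 TPM, lay above that of LAMC1, whereas after IR its 49.0 to 56.7 TPM lay below that of LAMC1.

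The full-length beta integrin transcripts together stood at 1106, 1155 and 1239 TPM in untreated libraries and at 1100, 957 and 952 TPM after IR. The groups did not overlap, although IR replicate 1 lay just under the lowest untreated library, and nearly all of this sum was ITGB1. For the laminin beta chains the sums were 65.1, 70.9 and 62.0 TPM untreated and 86.7, 77.0 and 118 TPM after IR, again without overlap. The sums for the alpha integrins, the laminin alpha chains and the laminin gamma chains overlapped between groups. With 3 libraries in each group, an exact permutation test cannot give a two-sided P under 0.1, which every sum or gene without overlap reaches.

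**Figure D2:**
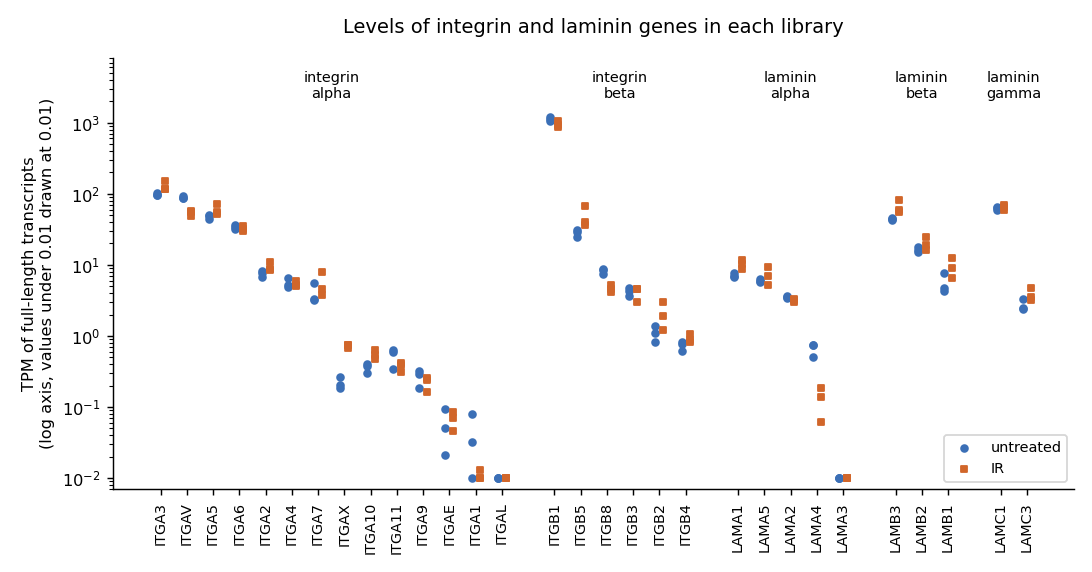
TPM summed over full-length transcripts, on a log axis, for 30 tested genes in each library, in order of mean level within each kind of chain. Circles are untreated and squares are IR, values under 0.01 are drawn at 0.01. ITGB1 is far above every other gene, with 1034 TPM on average, and ITGAV, ITGB8 and LAMA4 show IR libraries below untreated ones.

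ITGAV and ITGB8 encode the subunits of a receptor best known for releasing active TGF-beta from its latent form, and both fell. ITGAV lies at chr2:186590010-186680901 on the + strand (GRCh38, GENCODE release 44). It had 342, 342 and 334 CPM in the untreated libraries, in the order of replicates 1 to 3, and 252, 230 and 233 CPM after IR. All IR libraries were thus well below all untreated ones, with a log2 fold change of -0.51 (SE 0.063, edgeR adjusted P = 0.000684). ITGB8, at chr7:20330702-20415754 on the + strand, was at 48.4, 46.0 and 43.98 CPM untreated and at 30.6, 26.2 and 25.3 CPM after IR. This was the most marked fall of an integrin gene on the log2 scale, at -0.76 (SE 0.088, edgeR adjusted P = 0.000577), and the groups were again apart. The 250 bases before the start of the representative (MANE Select) transcript of both genes are shown because the genes fell together. The windows lie partly within the gene spans given above, which include transcripts with earlier starts. They come from RefSeq (GRCh38.p14), 5′ to 3′ along the gene, with matches to the GC box GGGCGG or its reverse complement CCGCCC in capitals.
ITGAV, chr2:186589806-186590055, + strand: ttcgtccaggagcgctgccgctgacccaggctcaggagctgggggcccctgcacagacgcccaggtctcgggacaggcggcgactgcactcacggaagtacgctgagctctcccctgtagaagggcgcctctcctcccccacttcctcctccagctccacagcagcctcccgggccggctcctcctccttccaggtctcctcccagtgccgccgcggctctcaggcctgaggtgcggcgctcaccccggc
ITGB8, chr7:20330650-20330899, + strand: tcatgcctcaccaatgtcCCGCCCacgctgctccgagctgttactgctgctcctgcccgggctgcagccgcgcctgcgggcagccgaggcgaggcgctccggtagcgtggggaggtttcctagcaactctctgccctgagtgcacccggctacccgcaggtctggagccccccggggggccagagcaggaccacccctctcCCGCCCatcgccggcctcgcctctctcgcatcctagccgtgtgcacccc

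The window of ITGAV held no GC box and had a GC content of 70.8%, and that of ITGB8 held 2 GC boxes at a GC content of 71.2%. Both promoters were thus rich in GC, although the transcripts of both genes were poor in it, at 39.0% for ITGAV and 39.3% for ITGB8.

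ITGB5, a partner of ITGAV in a vitronectin receptor, moved the other way. It lies at chr3:124761948-124901418 on the - strand and was at 273, 297 and 270 CPM untreated and at 362, 370 and 424 CPM after IR. The groups did not overlap, and the log2 fold change was 0.46 (SE 0.077, edgeR adjusted P = 0.00244). ITGB3, the partner of ITGAV in the other vitronectin receptor, had overlapping groups, a log2 fold change of -0.11 and an edgeR adjusted P of 0.554. Exons of ITGB3 overlap on the same strand with those of another protein-coding gene. On the log2 scale the ratio of ITGB5 to ITGAV in CPM went from -0.28 ± 0.06 (SD, n = 3) untreated to 0.69 ± 0.17 (SD, n = 3) after IR, a difference of 0.97 with no overlap. This ratio is not corrected for the GC trend, and the GC content was 54.3% for ITGB5 and 39.0% for ITGAV. With that trend removed their log2 fold changes were smaller, at 0.38 and -0.33. A rise relative to ITGAV was not particular to ITGB5. In CPM the log2 ratio of ITGB1 to ITGAV rose by 0.31 without overlap, and that of ITGB3 to ITGAV by 0.40 with overlap. In full-length TPM they rose by 0.47 and 0.64, both without overlap. The ratio of ITGB8 to ITGAV shifted by -0.25, without overlap in CPM but with overlap in full-length TPM. ITGB1 stood at 2395, 2443 and 2547 CPM untreated and at 2377, 2198 and 1886 CPM after IR. Its IR libraries spread widely and reached from just under the untreated range to well below it, with a log2 fold change of -0.19 (SE 0.084) and an edgeR adjusted P of 0.109. Without IR replicate 1 the log2 fold change of ITGB1 was -0.28 and the edgeR adjusted P was 0.0282. ITGB1 was not called without any other single library (edgeR adjusted P from 0.150 to 0.260). With the GC trend removed its log2 fold change was -0.03 (edgeR adjusted P = 0.764). ITGA5, the alpha subunit of the classical fibronectin receptor, was at 221, 216 and 202 CPM untreated and at 249, 254 and 273 CPM after IR. All IR libraries were higher, with a log2 fold change of 0.28 (SE 0.067, edgeR adjusted P = 0.0119).

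Among the alpha subunits that bind laminin, ITGA3 and ITGA7 rose and ITGA6 was not called. ITGA3 (chr17:50055968-50090481, + strand), which pairs with ITGB1 in a receptor for laminins of epithelial basement membranes, was at 527, 557 and 516 CPM untreated and at 645, 693 and 708 CPM after IR. The IR libraries were all above the untreated ones, with a log2 fold change of 0.36 (SE 0.065, edgeR adjusted P = 0.00373). ITGA7, best known from muscle, was at 21.2, 22.3 and 19.3 CPM untreated and at 26.8, 30.3 and 36.0 CPM after IR. Its log2 fold change was 0.57 (SE 0.112, edgeR adjusted P = 0.00498), without overlap. Exons of ITGA7 overlap on the opposite strand with those of BLOC1S1 and METTL7B, and whether counting used strand is not given in the sources used here, so that reads there cannot be told apart. ITGA6 was at 133, 124 and 123 CPM untreated and at 139, 130 and 115 CPM after IR, with overlapping groups, a log2 fold change of 0.02 (95% interval -0.16 to 0.19) and an edgeR adjusted P of 0.902. ITGB4, the partner of ITGA6 in hemidesmosomes, had a low full-length level of 0.830 TPM, a log2 fold change of 0.26 and an edgeR adjusted P of 0.205.

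The 4 collagen-binding alpha subunits did not share a direction, although groups did not overlap for any of them. ITGA2 rose, from 36.4, 43.3 and 41.5 CPM untreated to 60.2, 49.8 and 44.4 CPM after IR. IR replicate 3 lay close to the highest untreated library, and the log2 fold change was 0.34 (SE 0.113, edgeR adjusted P = 0.0428). ITGA1 fell, from 10.98, 11.996 and 11.04 CPM to 9.20, 9.58 and 8.64 CPM, by a log2 fold change of -0.32 (SE 0.109, edgeR adjusted P = 0.0496). Only 1.31% of the counts of ITGA1 lay on full-length protein-coding transcripts, most of the others lay on ITGA1-208, which is annotated for nonsense-mediated decay, and exons of ITGA1 overlap with those of PELO on the same strand. ITGA11 was at 5.49, 5.98 and 4.06 CPM untreated and at 3.87, 2.995 and 3.65 CPM after IR (log2 fold change -0.55, edgeR adjusted P = 0.0531). ITGA10 was at 2.20, 2.36 and 2.003 CPM untreated and at 2.81, 2.72 and 3.14 CPM after IR (log2 fold change 0.41, edgeR adjusted P = 0.137). The calls of ITGA1 and ITGA2 rested on the full set of libraries. That of ITGA1 was lost without any 1 of the 6 libraries, with edgeR adjusted P between 0.0703 and 0.163. That of ITGA2 was lost without untreated replicate 1, 2 or 3 or IR replicate 1 or 2, with edgeR adjusted P between 0.0641 and 0.148. Without untreated replicate 3, ITGA11 had a log2 fold change of -0.70 and an edgeR adjusted P of 0.0277.

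ITGA4 and ITGA9, which bind VCAM1, tenascins and related ligands, were not called, with log2 fold changes of -0.06 and -0.49 and edgeR adjusted P of 0.691 and 0.143. ITGA4 was at 22.6 to 28.2 CPM in the 6 libraries and its groups overlapped, whereas ITGA9 had 1.96 to 2.20 CPM untreated and 1.198 to 1.79 CPM after IR. Exons of ITGA4 overlap with those of CERKL on the opposite strand.

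Of the integrins typical of leukocytes, ITGAX and ITGB2, which pair with each other in a complement receptor, rose from low levels. ITGAX (chr16:31355134-31382999, + strand) was at 2.42, 2.90 and 1.76 CPM untreated and at 5.57, 6.04 and 6.20 CPM after IR. The lowest IR library was well above the highest untreated one, with the largest log2 fold change of the 17 called genes, 1.33 (SE 0.199, edgeR adjusted P = 0.00149). ITGB2 (chr21:44885953-44931989, - strand) was at 4.28, 3.79 and 4.64 CPM untreated and at 6.29, 6.92 and 7.59 CPM after IR. The groups did not overlap, and the log2 fold change was 0.72 (SE 0.154, edgeR adjusted P = 0.00747). Full-length transcripts of ITGAX stood at 0.217 ± 0.0402 TPM (SD, n = 3) untreated and 0.726 ± 0.0341 TPM (SD, n = 3) after IR, a low level beside the matrix receptors. The summed leukocyte markers were lower in the IR libraries than in the untreated libraries, as given above. ITGAE and ITGAL were not called, with overlapping groups, log2 fold changes of 0.09 and -0.26 and edgeR adjusted P of 0.653 and 0.606. Only 1.502% of the counts of ITGAE and none of those of ITGAL lay on full-length protein-coding transcripts, and exons of ITGAE overlap with those of HASPIN on the opposite strand.

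All 3 tested laminin beta chain genes rose. LAMB3 (chr1:209614870-209652425, - strand), the beta chain of the laminin that anchors epithelia, was at 197, 191 and 181 CPM untreated and at 252, 255 and 294 CPM after IR. The log2 fold change was 0.50 (SE 0.076, edgeR adjusted P = 0.00173), and all IR libraries were above all untreated ones. LAMB1 (chr7:107923799-108003213, - strand), the beta chain of the most widespread laminins, was at 72.9, 78.6 and 74.7 CPM untreated and at 99.2, 92.2 and 95.3 CPM after IR. The groups were tight and apart, with a log2 fold change of 0.34 (SE 0.065, edgeR adjusted P = 0.00426). Full-length transcripts held 39.1% of the counts of LAMB1, and its exons overlap with those of DLD on the opposite strand. LAMB2 (chr3:49121114-49133118, - strand), known from the basement membranes of the kidney glomerulus and the neuromuscular junction, was at 120, 130 and 108 CPM untreated and at 138, 135 and 147 CPM after IR. The gap between its groups was small, and the log2 fold change was 0.23 (SE 0.079, edgeR adjusted P = 0.0494). This call was lost without untreated replicate 1 or 3 or any IR replicate, with edgeR adjusted P between 0.0761 and 0.151. For LAMB1, LAMB2 and LAMB3 the 250 bases before the start of the representative transcript are shown, because all of these genes rose. They again come from RefSeq (GRCh38.p14), 5′ to 3′ along the gene, with GC boxes in capitals. The windows of LAMB1 and LAMB2 lie partly within the gene spans given above.
LAMB1, chr7:108003162-108003411, - strand: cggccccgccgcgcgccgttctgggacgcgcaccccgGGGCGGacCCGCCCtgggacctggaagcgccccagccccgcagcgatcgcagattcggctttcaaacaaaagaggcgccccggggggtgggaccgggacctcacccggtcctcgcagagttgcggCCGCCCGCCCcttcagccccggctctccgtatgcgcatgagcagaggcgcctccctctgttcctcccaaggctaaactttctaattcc
LAMB2, chr3:49133051-49133300, - strand: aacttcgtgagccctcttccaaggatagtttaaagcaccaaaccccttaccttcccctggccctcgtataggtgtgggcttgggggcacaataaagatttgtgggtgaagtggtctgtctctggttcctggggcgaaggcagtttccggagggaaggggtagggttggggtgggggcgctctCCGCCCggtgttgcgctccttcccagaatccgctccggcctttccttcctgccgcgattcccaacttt
LAMB3, chr1:209652426-209652675, - strand: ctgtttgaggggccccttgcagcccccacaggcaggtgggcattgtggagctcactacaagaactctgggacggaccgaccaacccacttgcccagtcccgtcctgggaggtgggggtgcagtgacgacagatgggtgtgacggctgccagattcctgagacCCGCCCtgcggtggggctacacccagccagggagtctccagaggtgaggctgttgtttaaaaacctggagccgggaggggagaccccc

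Windows of this kind were found for 25 of the 37 genes, at the start of the representative (MANE Select) transcript for all but LAMA3. LAMB1 held 4 GC boxes, of which 2 overlap, and LAMB2 and LAMB3 held 1 each. Over the 25 windows, 14 (56.0%) held a GC box, compared with 42.6% of all 35114 windows in the RefSeq table. The table can hold more than 1 window for a gene and includes genes that were not tested. These shares are therefore not like for like and show no excess. Of the tested integrin and laminin genes with a window, 6 of 6 that rose, 1 of 4 that fell and 5 of 10 not called had a GC box. Among all tested genes with a window, the shares were 76.3% of those that rose, 71.6% of those that fell and 67.4% of those not called. The AP-1 motif TGAGTCA or its reverse complement TGACTCA was found in 1 of the 25 windows, that of LAMA3, and in 4.20% of all windows. The E-box CACGTG, which is its own reverse complement, was found in none of the 25 and in 6.35% of all. Both strands were searched, and the windows printed here hold neither AP-1 nor E-box letters, which says nothing about binding of a factor.

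Of the laminin alpha chains, LAMA1 rose and LAMA4 fell. LAMA1 (chr18:6941742-7117797, - strand), the alpha chain of the first basement membranes of the embryo, was at 62.8, 69.7 and 58.5 CPM untreated and at 100.1, 90.9 and 108 CPM after IR. No IR library came near the untreated range, and the log2 fold change was 0.65 (SE 0.088, edgeR adjusted P = 0.00107). LAMA4 (chr6:112107931-112254939, - strand), an alpha chain of vessels and muscle, was at 4.83, 5.26 and 6.69 CPM untreated and at 3.44, 3.43 and 3.10 CPM after IR. The IR libraries were close to each other and below all untreated ones, with a log2 fold change of -0.76 (SE 0.177, edgeR adjusted P = 0.0107). Only 39.3% of the counts of LAMA4 lay on full-length transcripts, whose level was 0.670 ± 0.137 TPM (SD, n = 3) untreated and 0.128 ± 0.0615 TPM (SD, n = 3) after IR. LAMA2, LAMA5 and LAMA3 were not called, with overlapping groups. The log2 fold changes were -0.12 for LAMA2, the alpha chain of muscle, 0.21 for LAMA5, the broadly used alpha chain, and 0.91 for LAMA3, with edgeR adjusted P of 0.347, 0.147 and 0.150. Without IR replicate 2, LAMA5 had a log2 fold change of 0.31 and an edgeR adjusted P of 0.0425. With the GC trend removed, LAMA5 changed sign, to a log2 fold change of -0.17 (edgeR adjusted P = 0.0819). Exons of LAMA5 overlap with those of ADRM1 on the opposite strand. LAMA3 was hardly detected, at 0.268 to 1.198 CPM, with no counts on transcripts counted as full-length, a definition that leaves out its shorter form from an internal start.

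Of the laminin gamma chains, LAMC3 rose and LAMC1 was not called. LAMC1, the gamma chain of most laminins, was at 486, 515 and 512 CPM untreated and at 535, 523 and 473 CPM after IR. Its groups overlapped, and the log2 fold change was 0.02 (SE 0.068, 95% interval -0.13 to 0.17, edgeR adjusted P = 0.873). LAMC3, a gamma chain of limited distribution, was at 24.8, 31.6 and 24.1 CPM untreated and at 35.2, 36.6 and 40.9 CPM after IR. Untreated replicate 2 came closest to the IR range without reaching it, and the log2 fold change was 0.49 (SE 0.111, edgeR adjusted P = 0.00963). On the log2 scale the ratio of LAMA1 to LAMC1 in CPM rose from -2.99 ± 0.13 (SD, n = 3) to -2.36 ± 0.21 (SD, n = 3), and that of LAMB1 to LAMC1 from -2.74 ± 0.03 (SD, n = 3) to -2.42 ± 0.10 (SD, n = 3), both without overlap. In full-length TPM the ratio of LAMA1 to LAMC1 was also without overlap, and that of LAMB1 to LAMC1 overlapped.

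The 6 genes that did not pass the filter were ITGA8, ITGAD, ITGAM, ITGB6, ITGB7 and LAMB4. Their estimated counts were between 0 and 17.3 in every library, with the highest in IR replicate 3 for ITGB6 and the highest of LAMB4 at 3.06. ITGA8 is a further RGD-binding subunit, ITGAD and ITGAM are leukocyte subunits, ITGB6 is an epithelial partner of ITGAV and ITGB7 is a lymphocyte subunit. No change could be detected in them at this depth.

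Fold changes over all genes followed GC content, from a median log2 fold change of -0.19 in the lowest eighth of GC content to 0.34 in the highest. The integrin and laminin genes were spread along this range. Of the 8 tested genes with a GC content under 45%, 2 rose and 3 fell, compared with 4.77% and 26.7% of all genes in that range. Of the 13 between 45% and 55%, 3 rose and 1 fell, compared with 11.0% and 12.3%. Of the 10 at 55% or more, 8 rose and none fell, compared with 34.0% and 2.39%, and their median log2 fold change was 0.42 beside 0.24 for all genes in that range. ITGA2 and LAMB1 rose in spite of a GC content of 40.2% and 42.5%, a range in which the median over all genes was below 0.

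**Figure D3:**
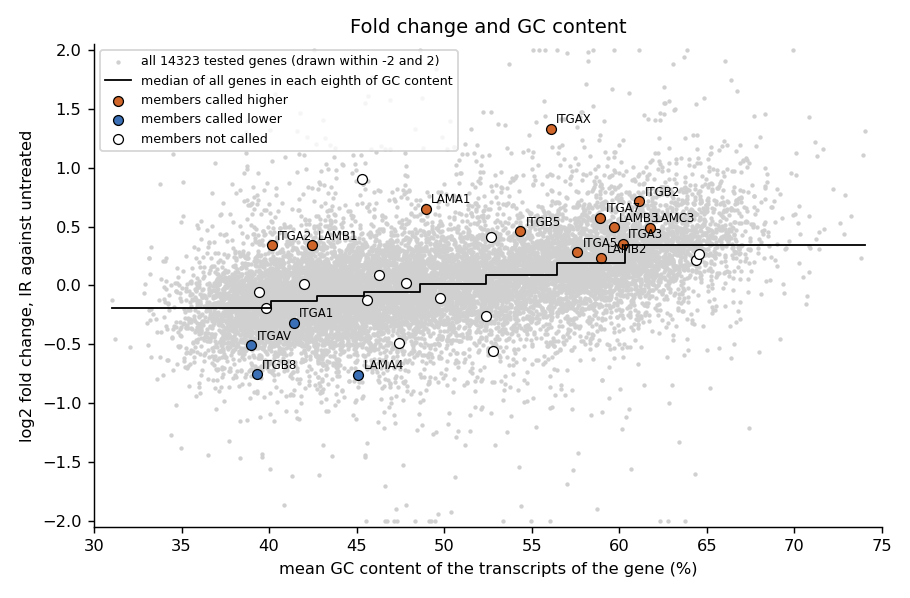
Log2 fold change of IR against untreated on the vertical axis and mean GC content of the transcripts of a gene on the horizontal axis. Grey points are all 14323 tested genes, the stepped line is their median in each eighth of GC content, and it climbs from -0.19 to 0.34. Orange, blue and white circles are 30 tested integrin and laminin genes that rose, fell or were not called.

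With each library's GC trend taken out, 8 of the 31 genes rose and 4 fell, a split of 8 to 4 beside 13 to 4. Over all tested genes 11.7% rose and 12.6% fell in that fit. The genes still called included LAMA1, ITGAX, ITGB5, LAMB3, ITGA7, LAMB1 and ITGA2, which rose, and ITGAV, ITGB8 and LAMA4, which fell, and ITGA11 was called in addition, with a log2 fold change of -0.60 (edgeR adjusted P = 0.0414). ITGAV then stood at -0.33, ITGB8 at -0.58, LAMB3 at 0.27 and LAMA1 at 0.67 on the log2 scale. The calls of ITGA3, ITGA5, LAMC3, LAMB2, ITGB2 and ITGA1 were lost, with log2 fold changes of 0.12, 0.12, 0.19, 0.03, 0.44 and -0.18. With an offset for the effective length that kallisto gave each transcript in each library, 5 genes rose and 3 fell, compared with 5.82% and 6.11% of all tested genes. LAMA1, LAMC3, ITGAX, LAMB3 and ITGB5 rose in that fit, at log2 fold changes of 0.95, 0.97, 1.196, 0.52 and 0.37, and ITGAV, ITGB8 and ITGA1 fell, by 0.71, 0.72 and 0.73. LAMA4 lost its call there, at -0.33. Calls were also lost there for genes such as LAMB1, ITGA7, ITGA2, ITGA3, ITGA5, ITGB2 and LAMB2. Their log2 fold changes stayed above 0, from 0.23 to 0.62, with edgeR adjusted P from 0.0616 to 0.232. ITGAV, ITGAX, ITGB5, ITGB8, LAMA1 and LAMB3 were called in the same direction under all 14 alternatives, which include both corrections and the removal of each library in turn.

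**Figure D4:**
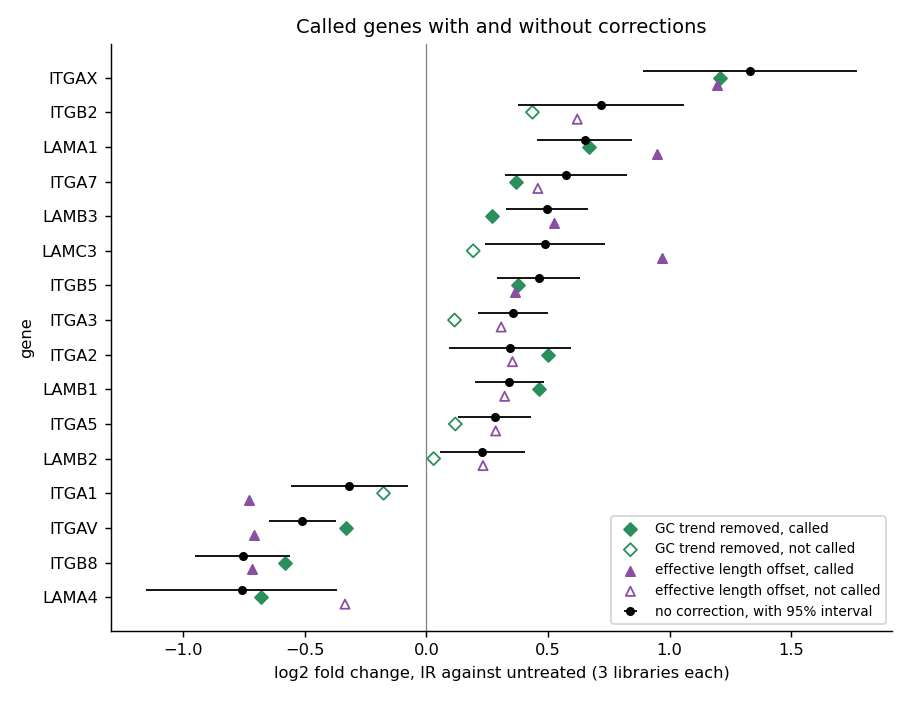
Log2 fold change of 16 called genes without correction (black, with the 95% interval), with the GC trend removed (diamonds) and with an effective length offset (triangles). Filled symbols are called at an adjusted P under 0.05 and open symbols are not. ITGAX, LAMA1, LAMB3, ITGB5, ITGAV and ITGB8 have filled symbols in both corrections, and no gene crosses 0.

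The deposited files give transcripts, and a change in the proportions of transcripts was tested by diffSpliceDGE of edgeR. Of the 24 integrin and laminin genes with at least 2 transcripts to compare, 2 were called, ITGA6 (adjusted P = 1.2e-05 from edgeR) and ITGAV (adjusted P = 0.00116 from edgeR), whereas 2.67% of all 10666 genes tested in this way were called. In both, a transcript with a short last exon was lost from the estimates after IR. ITGAV-204, which ends 3460 bases before ITGAV-201 and has the same stop codon, was at 38.2, 66.1 and 39.8 CPM untreated and at 0 in all 3 IR libraries. ITGAV-201 was at 303, 266 and 288 CPM untreated and at 251, 202 and 218 CPM after IR, also without overlap. ITGA6-203, which ends 1724 bases before ITGA6-201 and also shares its stop codon, was at 13.4, 14.4 and 3.91 CPM untreated and at 0 in all 3 IR libraries. ITGA6-201 was at 100.4, 95.3 and 100.2 CPM untreated and at 122, 120 and 92.6 CPM after IR, with overlap. A count of 0 allows up to 3 counts, which is 0.0709% of the counts of ITGAV and 0.125% of those of ITGA6 in IR replicate 2, and this covers counting error only. Because all of ITGAV-204 and ITGA6-203 but their ends lies within the longer transcripts, kallisto divides most of their reads by estimate. Where only genes or transcripts with at least 10 counts in every library were kept, these transcripts with 0 counts dropped out and neither gene was called.

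ITGA6 transcripts also differ in exon 25 of ITGA6-201, which changes the cytoplasmic tail of the subunit. The exon of 130 bases lies at chr2:172501772-172501901 (GRCh38, + strand), and forms that include it end their reading frame inside it, whereas forms that skip it read on into the next exon. The first 108 bases are shown, with the stop codon in capitals, because the sequence tells the forms apart.
ITGA6 exon 25, chr2:172501772-172501879, + strand: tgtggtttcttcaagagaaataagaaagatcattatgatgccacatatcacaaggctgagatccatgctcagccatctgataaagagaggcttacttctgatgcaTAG

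Forms with the exon (ITGA6-201 and ITGA6-203) were at 114, 110 and 104 CPM untreated and at 122, 120 and 92.6 CPM after IR. Forms without it (ITGA6-202, ITGA6-206 and ITGA6-207) were at 17.1, 12.4 and 15.3 CPM untreated and at 14.5, 7.68 and 20.8 CPM after IR. The groups overlapped for both forms, and the share with the exon ranged from 86.9% to 89.9% untreated and from 81.6% to 94.0% after IR. The form with the exon was the main one in every library, although ITGA6-203, which includes the exon, was at 0 after IR.

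The lists of partners give the setting of these genes in the same fit. Over all tested genes, 15.5% rose and 14.5% fell, and the median GC content was 48.6%. Of 13 further laminin receptors, tetraspanins and hemidesmosome genes, all tested, 8 rose (61.5%) and 2 fell (15.4%). Their median log2 fold change was 0.32 and their median GC content 55.1%. SDC1, a syndecan that binds laminins through its sugar chains, rose from 198, 202 and 184 CPM to 354, 356 and 428 CPM, with a log2 fold change of 0.97 (SE 0.085, edgeR adjusted P = 0.000204). CD82, a tetraspanin that binds integrins in the membrane, rose by 0.95 on the log2 scale, and COL17A1, the collagen of hemidesmosomes, by 1.03 (edgeR adjusted P = 0.000609 and 0.000727). SDC2, a further syndecan, and DST, which links hemidesmosomes to keratin, fell by 0.24 and 0.41 (edgeR adjusted P = 0.0431 and 0.0268). Both lost their call with the GC trend removed and with the effective length offset, where DST stood at 0.11 and SDC2 at -0.32 (edgeR adjusted P = 0.415 and 0.106). The call of DST was also lost without untreated replicate 1, 2 or 3 or IR replicate 2 (edgeR adjusted P from 0.0607 to 0.0947), and that of SDC2 without untreated replicate 1, 2 or 3 or IR replicate 2 or 3 (edgeR adjusted P from 0.0596 to 0.153).

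Of 42 tested genes for intracellular partners of integrins, 7 rose (16.7%) and 10 fell (23.8%), beside 15.5% and 14.5% of all tested genes. Their median log2 fold change was 0.03 and their median GC content 55.4%. PARVG and PARVB, parvins that bind integrin-linked kinase, and PXN, the scaffold paxillin, rose by 0.56, 0.55 and 0.39 on the log2 scale (edgeR adjusted P = 0.00133, 0.00280 and 0.00722). TNS3, a tensin that binds beta subunits, FERMT2, a kindlin that activates integrins, and LIMS1, the PINCH protein bound to integrin-linked kinase, fell by 0.50, 0.39 and 0.42 (edgeR adjusted P = 0.000631, 0.00231 and 0.00310). All of these 6 genes were also called with the GC trend removed, and with the effective length offset all but PXN, at a log2 fold change of 0.30 (edgeR adjusted P = 0.167). Of 19 tested genes for other ligands and basement membrane proteins, 5 rose (26.3%) and 2 fell (10.5%). Their median log2 fold change was 0.16 and their median GC content 51.4%. CCN1, a matrix ligand of several integrins, rose from 384, 380 and 406 CPM to 578, 579 and 604 CPM, with a log2 fold change of 0.59 (SE 0.061, edgeR adjusted P = 0.000308). MFGE8, an RGD ligand of ITGAV receptors, and COL4A2, a collagen of basement membranes, rose by 0.48 and 0.37 (edgeR adjusted P = 0.00204 and 0.00366), but the call of COL4A2 was lost with the GC trend removed. EDIL3, a further RGD ligand of ITGAV receptors, and TNC, the matrix protein tenascin C, fell by 0.44 and 0.31 (edgeR adjusted P = 0.00143 and 0.0153). Without untreated replicate 1 or 2 the call of TNC was lost, with edgeR adjusted P of 0.0687 and 0.0689, and with the effective length offset it stood at -0.26 (edgeR adjusted P = 0.151).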

How the data were processed

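RNA of 6 libraries of U-2 OS cells was sequenced, with poly(A) RNA and an mRNA kit according to the labels but a total RNA kit in the methods of the study, so that the selection of RNA behind retained-intron and decay transcripts is not settled. The authors assigned the reads with kallisto to GENCODE release 37 (GRCh38). The deposited files hold 1 row per transcript, with an estimated count that is not normalized, the TPM that kallisto derived from it for the authors, and the length and effective length. Identifiers were looked up in GENCODE release 44, where 158711 were found and 2460 were not and were left out. The estimated counts of a gene were added and rounded. All 6 libraries entered 1 fit in edgeR 4.0.16 with limma 3.58.1 and R 4.3.3, using filterByExpr, TMM, glmQLFit and glmQLFTest. Depth was 18573309 to 45308792 counts per library. The GC trend of each library was removed as an offset from a lowess fit with span 0.3. The other offset used the mean effective length of each gene in each library, weighted by the TPM of its transcripts. Alternatives were the filter, DESeq2 1.42.0, the likelihood ratio test, a replicate block, both offsets and leaving out each library. Scripts were tested on simulated data. No library was a copy of another, since replicate pairs differed beyond sampling noise (chi-square per gene from 3.47 to 31.1). The highest values were those of the pairs with IR replicate 3.

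The genes and lists were chosen with earlier results of these data known. Every gene that passed the filter is named, except 1 that enters the counts but is not reported here, with full statistics for called genes and for the 5 of highest mean TPM, and from each list of partners the 3 called genes of lowest P in each direction.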

Additional observations from a re-analysis of the deposited data

How the results depend on the processing

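Of the 13 rises and 4 falls of integrin and laminin genes, the count of rises fell to 8 with the GC trend removed and to 5 with the effective length offset, while the falls kept within 1.5 times of 4 in every alternative. For the lists of partners, 20 genes rose and 14 fell, with the share in each list given above beside that of all tested genes. The rises there became 13 with the GC trend removed and 11 with the effective length offset, and the falls became 6 with that offset and ranged from 8 to 15 when 1 library was left out, at 9 without IR replicate 2, 8 without untreated replicate 1, 8 without untreated replicate 2 and 9 without untreated replicate 3. For transcript usage, 2 genes were called, and between 2 and 3 when 1 library was left out. When transcripts had to reach 10 counts in all 6 libraries, 1 gene was called, LAMA1, since one transcript each of ITGA6 and ITGAV is at 0 after IR and drops out. Of the called genes named here, DST changed sign, to a log2 fold change of 0.11 with the effective length offset. Some genes that were not called also changed sign, among them LAMA5 and ITGB4 with the GC trend removed, at -0.17 and -0.12. The cause of these shifts was not tested, except that the fit without GC trend takes that trend out by construction, and the effective length that kallisto gives could include a correction for sequence bias. Because the mean effective length of a gene is weighted by TPM, that offset also moves with the estimated proportions of its transcripts. With a replicate block, 10 integrin and laminin genes rose and 3 fell, and ITGA1, ITGA2 and LAMB2 were among the genes not called. Same-numbered libraries did not deviate together, with correlations of -0.017, 0.007 and -0.052, so that the numbers were not treated as a paired design. Only IR replicate 2 correlated best with the library of its own number. DESeq2 called 13 rises and 3 falls, and its size factors gave 12 and 4. Of the 31 tested genes ITGAL, LAMA3 and ITGA9 had the lowest mean counts per library, 13.1, 14 and 42.3.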

Other observations

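Other transcripts of these genes moved without a call in the test of transcript usage across all transcripts. LAMA1-203, a retained-intron transcript with 14 of the exons of the gene, was at 2.53, 2.45 and 1.66 CPM in untreated libraries and at 11.6, 11.0 and 18.64 CPM after IR. Its share of the counts of LAMA1 was between 2.83% and 3.99% untreated and between 11.6% and 17.2% after IR, so that the groups did not overlap, while LAMA1-201, the full-length transcript, was at 57.8, 63.5 and 53.2 CPM untreated and at 85.6, 77.0 and 86.0 CPM after IR. The test of transcript usage across all transcripts gave LAMA1 an edgeR adjusted P near 1, at 0.999999, and with at least 10 counts in every library an edgeR adjusted P of 0.0194. ITGB1-216, a transcript of 562 bases annotated for nonsense-mediated decay, stood at 272 TPM in untreated replicate 3, at 42.4 TPM in IR replicates 1 and 2 and at 0 in the other libraries, although it held only 3.09% of the counts of ITGB1 where it was highest.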
